A study of Mus musculus with 2 samples.

Results

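The milk fat globule membrane genes examined here were the 8 genes *Btn1a1*, *Xdh*, *Mfge8*, *Plin2*, *Plin3*, *Cidea*, *Muc1* and *Muc15*, taken by symbol from a fixed list of proteins that coat milk fat or take part in its release. All 8 were present among the 25810 genes with a symbol in the deposited tables. The RNA came from mammary epithelial cells (MECs) of inguinal glands at lactation day 3, in 1 library from wild-type (WT) mice and 1 library from *Igfbp7*-/- mice, in which the first coding exon of *Igfbp7*, an IGF binding protein, was deleted in the germline and not in the mammary gland alone. The labels give C57BL/6 as the background of both genotypes, whereas the methods of the study name CD1 for the knockout. Lineage positive cells were removed with magnetic beads before RNA extraction, by CD45 (leukocytes), Ter119 (erythroid cells) and a further antigen that the labels give as CD35 and the methods as CD31, the endothelial marker, and the labels and methods do not say how many animals entered a library.

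Milk fat leaves the alveolar cell in a way that no other secretion does. Triglyceride droplets form at the endoplasmic reticulum, travel to the apical surface and are wrapped in plasma membrane as they bud into the lumen, so that each milk fat globule carries a droplet coat on the inside and a cell membrane on the outside. The butyrophilin Btn1a1 and the enzyme xanthine oxidoreductase (encoded by *Xdh*) sit between both layers and bind each other, perilipin 2 (*Plin2*) coats the droplet, Cidea acts on droplet fusion and on lipid secretion, and the mucins and Mfge8 lie on the outer face. Several of these genes are known to be strongly induced in the secretory epithelium around birth.

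Expression is given as the read count, as RPM (reads per 1000000 mapped reads) and as RPKM (RPM per kilobase of gene length), all 3 as deposited. The WT library held 34327854 mapped reads and the *Igfbp7*-/- library 35016847, of which 82.4% and 72.3% fell on listed genes. The count of *Igfbp7* itself was 5224 reads in the WT library against 37 in the library labelled *Igfbp7*-/- (log2 ratio -7.04). The casein genes, which mark lactating epithelium, made up 10.96% of WT and 4.31% of *Igfbp7*-/- mapped reads, and the luminal keratin genes *Krt8* and *Krt18* were above 250 RPM in both libraries. Transcripts of the depleted lineages were still present, with 323 and 88.9 RPM of the endothelial gene *Pecam1* and 43.5 and 18.1 RPM of the leukocyte gene *Ptprc* in WT and *Igfbp7*-/-. The erythroid gene *Hbb-b1* was at 669 RPM in WT and 697 RPM in *Igfbp7*-/-. With 1 library per genotype the spread between animals is unknown and no difference between genotypes could be tested. Each interval below is a 95% interval of counting error only, computed on read pairs, and the differences are differences between these 2 libraries.

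In these libraries the 8 genes did not move as a group. *Plin2* and *Mfge8* were more than 2-fold higher in *Igfbp7*-/- than in WT MECs, *Xdh* and *Plin3* were higher by less than 1.5 times, *Btn1a1*, *Muc1* and *Muc15* were within 10% of their WT level, and *Cidea* was lower by less than 1.5 times. Caseins and most genes of milk fat synthesis, by contrast, were lower in the *Igfbp7*-/- library. Relative to *Csn2* (β-casein, log2 ratio -1.41) 8 of 8 members were higher, as were most genes. Of all 14026 genes tested, 1936 were lower by at least 2 times. *Csn2* was lower by 2.66 times, so no more than these 1936 can have a lower ratio than *Csn2*. These directions are those of the deposited RPM. Set against the median of 10 luminal epithelial genes, which were themselves higher in *Igfbp7*-/-, all 8 members had a ratio below 1. So did most genes, of which 11981 of 14026 were then lower by at least 1.5 times.

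**Figure D1:**
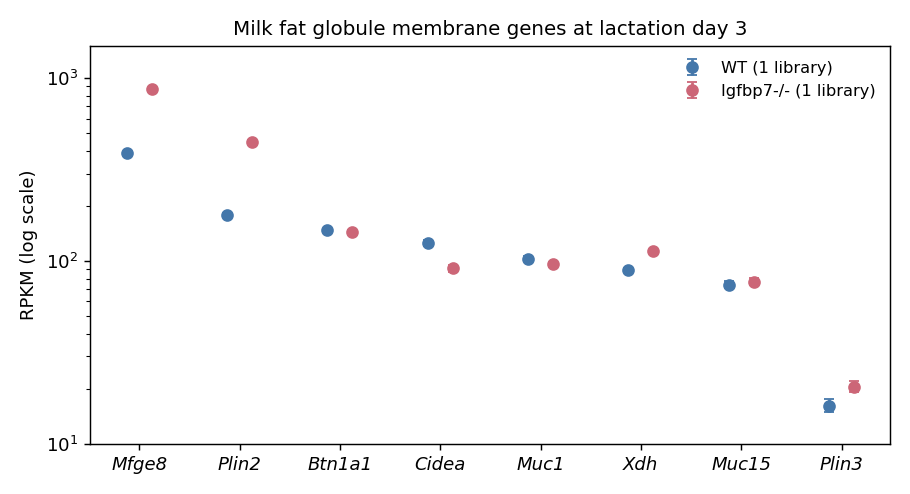
RPKM (log axis) of the 8 genes in the WT library (blue) and the *Igfbp7*-/- library (red), ordered by the WT level, with bars for the 95% counting interval, which are mostly smaller than the points. *Mfge8* and *Plin2* stand above the other members in both libraries and are further above them in *Igfbp7*-/-, where they reached 874 and 449 RPKM.

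*Plin2*, which encodes the main coat protein of milk lipid droplets, had 11562 reads in WT (337 RPM, 178 RPKM) and 29638 reads in *Igfbp7*-/- (846 RPM, 449 RPKM). Its ratio was the largest of the 8, 2.51-fold higher in *Igfbp7*-/- (log2 ratio 1.33, interval 1.29 to 1.37). *Mfge8*, which encodes lactadherin, a secreted protein that binds phosphatidylserine and marks dying cells and spent fat globules for uptake, had 28575 reads in WT (832 RPM, 388 RPKM) and 65563 reads in *Igfbp7*-/- (1872 RPM, 874 RPKM). Its level was 2.25-fold higher in *Igfbp7*-/- (log2 ratio 1.17, interval 1.14 to 1.20). Of the 14026 genes that reached 1 RPM in either library, 6.77% had a higher ratio than *Mfge8*. *Mfge8* was the most abundant member per length in both libraries, ranking 90 among all listed genes by RPKM in WT and 30 in *Igfbp7*-/-. *Plin2* moved from rank 202 to rank 72. Bases 1265 to 1888 of the *Plin2* transcript, 33.05% of it, match the pseudogene Gm12551 on the same chromosome (chr4:86272619-86273237, NCBIM37) at 96.48% identity over 625 aligned bases. How reads that fit both places were handled is not given in the sources used here, so a part of the *Plin2* count is uncertain.

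Of these 8 genes, *Plin2*, *Mfge8*, *Plin3* and *Muc1* had their RefSeq promoters (GRCm38.p6) examined. The 250 bases before the annotated start are shown for them. *Plin2* and *Mfge8* were the members that were higher, while *Plin3* and *Muc1* stayed within 1.5 times. Capitals mark matches on either strand to 5 motifs, namely TTCNNNGAA (the STAT site), CACGTG (the E-box), AGGTCA (a hexamer bound by nuclear receptors), TATAAA (the TATA box) and GGGCGG (the GC box).
Plin2 (chr4:86670060-86670309, minus strand): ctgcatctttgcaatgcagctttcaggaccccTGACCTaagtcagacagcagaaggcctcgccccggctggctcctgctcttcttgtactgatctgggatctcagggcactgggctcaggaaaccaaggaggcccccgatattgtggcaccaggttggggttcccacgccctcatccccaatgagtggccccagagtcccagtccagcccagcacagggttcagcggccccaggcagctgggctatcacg
Mfge8 (chr7:79149061-79149310, minus strand): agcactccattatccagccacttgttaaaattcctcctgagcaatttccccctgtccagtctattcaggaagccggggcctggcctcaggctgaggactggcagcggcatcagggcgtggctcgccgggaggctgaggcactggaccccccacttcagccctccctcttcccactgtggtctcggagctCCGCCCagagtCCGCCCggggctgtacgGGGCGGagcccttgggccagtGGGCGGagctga
Plin3 (chr17:56290512-56290761, minus strand): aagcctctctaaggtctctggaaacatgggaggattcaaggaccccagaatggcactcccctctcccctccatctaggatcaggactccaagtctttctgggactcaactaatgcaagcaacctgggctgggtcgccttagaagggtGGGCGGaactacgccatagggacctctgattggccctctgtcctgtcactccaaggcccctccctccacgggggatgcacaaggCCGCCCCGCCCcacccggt
Muc1 (chr3:89228806-89229055, plus strand): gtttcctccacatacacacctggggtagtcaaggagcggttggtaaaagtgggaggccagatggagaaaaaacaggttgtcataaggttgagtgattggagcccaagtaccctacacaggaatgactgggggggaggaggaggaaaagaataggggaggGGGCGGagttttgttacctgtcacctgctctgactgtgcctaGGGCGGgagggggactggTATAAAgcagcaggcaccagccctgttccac

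The *Plin2* window held 1 AGGTCA match, on the opposite strand, starting 218 bases before the start site, and no other motif. The *Mfge8* window held 4 GC boxes and nothing else of the 5 motifs, and the *Plin3* window held 3 GC boxes, of which the last pair overlap. *Muc1* had a TATAAA match starting 31 bases before the start site and 2 GC boxes. Neither TTCNNNGAA nor CACGTG occurred in the 4 windows. Over 27025 promoters of the same length, 7.18% held TTCNNNGAA, 6.05% CACGTG, 13.8% AGGTCA, 13.0% TATAAA and 32.9% GGGCGG. The higher members therefore shared no motif of the 5 that the other pair lacked. Promoters of the remaining members, with *Cidea* and its lowest ratio among them, were not examined, so this holds for the 4 windows only.

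Among the droplet coat genes the other perilipin of the list behaved unlike *Plin2*. *Plin3*, which encodes a widely expressed perilipin of nascent droplets and of vesicle traffic, was the least abundant member, with 1195 reads in WT (34.8 RPM, 16.1 RPKM) and 1553 reads in *Igfbp7*-/- (44.4 RPM, 20.5 RPKM). Its ratio was 1.27 (log2 ratio 0.35, interval 0.19 to 0.51). *Plin2* thus exceeded *Plin3* by 11.1-fold per length in WT and by 21.8-fold in *Igfbp7*-/-. About 6.95% of the *Plin3* transcript matches repeat copies elsewhere in the genome at 95% identity or more over at least 75 bases. *Plin4* had 24.7 RPM in WT and 17.8 RPM in *Igfbp7*-/- (log2 ratio -0.47), while *Plin1*, the perilipin of white fat, and *Plin5*, that of oxidative tissue, stayed below 1 RPM in both libraries. Perilipin transcripts of these cells were therefore mainly those of *Plin2*.

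*Cidea* was the member with the lowest ratio. It had 5014 reads in WT (146 RPM, 125 RPKM) and 3718 reads in *Igfbp7*-/- (106 RPM, 91.2 RPKM), and its WT level was 1.38-fold higher (log2 ratio -0.46, interval -0.55 to -0.37). Among its relatives, *Cidec*, which acts in large droplets of fat cells, had 4.57 RPM in WT and 1.03 RPM in *Igfbp7*-/- (log2 ratio -2.05), and *Cideb* stayed below 1 RPM. A lincRNA, B430212C06Rik, overlaps 540 bases of the *Cidea* gene on the opposite strand and had 38 reads in each library, which is small beside the *Cidea* counts. Within a library, *Plin2* exceeded *Cidea* by 1.42-fold per length in WT and by 4.92-fold in *Igfbp7*-/-, which was the widest shift between any 2 members (log2 change 1.79, interval 1.69 to 1.89).

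The genes of the butyrophilin and xanthine oxidoreductase complex were close to their WT level. *Btn1a1*, whose product is thought to tether the droplet to the apical membrane, gave 17411 reads in WT (507 RPM, 147 RPKM) and 17442 reads in *Igfbp7*-/- (498 RPM, 144 RPKM), a log2 ratio of -0.026 with an interval of -0.069 to 0.017 that includes no difference. *Xdh*, whose product serves as a membrane scaffold besides its purine-degrading activity, had 14060 reads in WT (410 RPM, 89.3 RPKM) and 18109 reads in *Igfbp7*-/- (517 RPM, 113 RPKM). Its log2 ratio was 0.34 (interval 0.29 to 0.38), a 1.26-fold difference. The *Btn1a1* to *Xdh* ratio, which does not depend on how the libraries are scaled, was 1.64 per length in WT and 1.28 in *Igfbp7*-/- (log2 change -0.36, interval -0.42 to -0.30). Both libraries thus held more *Btn1a1* than *Xdh* transcript per length. Other butyrophilins were low, with *Btnl9* at 5.59 and 4.23 RPM and *Btn2a2* at 0.47 and 0.43 RPM in WT and *Igfbp7*-/-.

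The 2 mucins of the globule surface were also near their WT level. *Muc1*, a transmembrane mucin of the apical membrane, had 7897 reads in WT (230.0 RPM, 103 RPKM) and 7521 reads in *Igfbp7*-/- (215 RPM, 96.1 RPKM), a log2 ratio of -0.099 (interval -0.16 to -0.034). *Muc15*, a heavily glycosylated membrane mucin, had 4029 reads in WT (117 RPM, 73.9 RPKM) and 4272 reads in *Igfbp7*-/- (122 RPM, 76.8 RPKM), a log2 ratio of 0.056 (interval -0.033 to 0.14). *Muc15* lies wholly within *Ano3* on the opposite strand. *Ano3* had 269 and 279 reads, and whether the counting used strand was not stated, so reads of both genes cannot be told apart. The RPKM of *Muc15* rests on a length of 1589 bases, whereas its longest annotated coding transcript has 3421 bases, which would put it at 34.3 RPKM in WT and 35.7 RPKM in *Igfbp7*-/-. For the other 7 members the annotated length was within 1% of that used by the authors.

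Other mucin genes of the family went far beyond these members. *Muc4*, a large membrane mucin whose product can bind ErbB2, had 63.9 RPM in WT and 783 RPM in *Igfbp7*-/- (log2 ratio 3.61), and *Muc20* had 9.73 and 35.5 RPM (log2 ratio 1.86). The low mucin genes *Muc2* (1.02 and 2.46 RPM), *Muc6* (0.96 and 3.37 RPM) and *Muc13* (0.38 and 1.51 RPM) were also higher. *Emcn*, an endothelial sialomucin gene, was lower (54.0 RPM in WT, 21.9 in *Igfbp7*-/-, log2 ratio -1.30). Of 9 mucin genes past the minimum, *Muc1* and *Muc15* among them, 5 were higher and 1 was lower by at least 1.5 times, beside 21.4% and 23.0% of all genes. *Muc6* and *Muc13* passed the minimum only through the *Igfbp7*-/- library, where they were higher, and with a minimum of 10 RPM the count was 2 higher and 1 lower of 6. In RPKM, *Muc4* stood at 5.67 in WT and 69.4 in *Igfbp7*-/-, below *Muc1* in both.

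In the NCBIM37 annotation (the Ensembl release of mm9, the build named in the submitters' processing notes) the members lie on 7 chromosomes. *Btn1a1* lies at chr13:23548861-23557770 on the minus strand with 8 exons, *Xdh* at chr17:74233248-74299522 on the minus strand with 36 exons, and *Plin3* on the same chromosome at chr17:56418385-56429934. *Mfge8* lies at chr7:86278655-86293946 with 10 exons and *Plin2* at chr4:86294290-86315964 with 8 exons, both on the minus strand. *Muc1* lies at chr3:89032979-89037303 with 7 exons, *Muc15* at chr2:110561497-110579684 with 4 exons and *Cidea* at chr18:67503218-67527448 with 5 exons, all on the plus strand. Deposited counts are per gene, so they do not show which exons or untranslated parts the reads came from.

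Set against all genes, the number of members past 1.5 times was not unusual. Of the 8 members, 2 (25%) were higher by at least 1.5 times, beside 21.4% of the 14026 genes tested, and 0 were lower, beside 23.0%. All 8 passed the minimum of 1 RPM. The median log2 ratio of the members was 0.20, and that of all genes was 0.035, with quartiles of -0.52 and 0.51. *Plin2* and *Mfge8* lay above the upper quartile and the other 6 members between the quartiles. Among the 1682 genes that reached 100 RPM in either library, 4.28% had a higher ratio than *Plin2* and 5.59% a higher ratio than *Mfge8*. In bulk RNA, a gain or loss of cells of a type and a change of RNA per cell cannot be told apart.

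**Figure D2:**
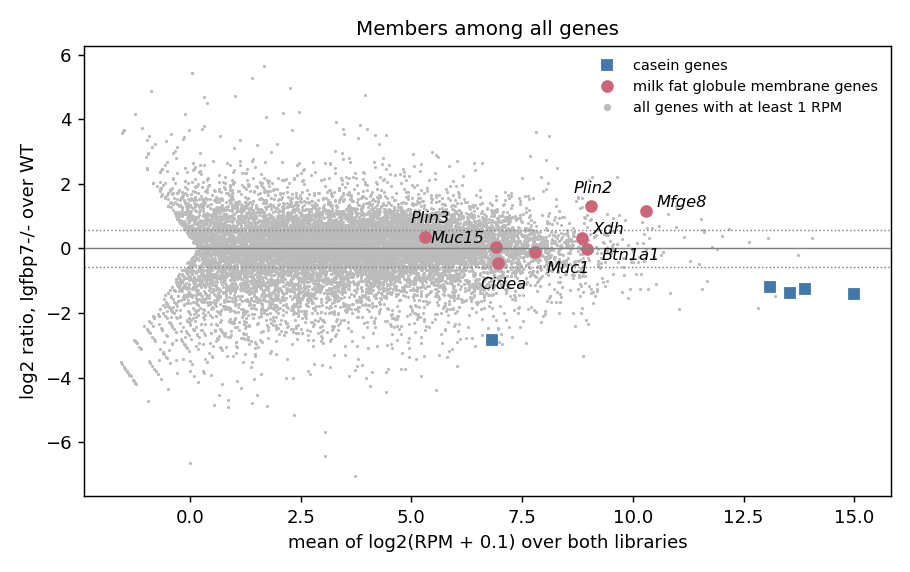
Log2 ratio of *Igfbp7*-/- to WT against the mean of log2(RPM + 0.1) over both libraries, for the 14026 genes that reached 1 RPM in either library (gray), the 8 members (red, named) and the 5 casein genes (blue squares), with dotted lines at 1.5 times. *Plin2* and *Mfge8* lie above the upper line and the other 6 members between the lines, whereas all 5 caseins lie below the lower line.

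How the libraries were scaled moved every ratio by the same amount. Scaling to the reads on listed genes raised the median log2 ratio of all genes by 0.19, and leaving the 20 most abundant genes out of the totals lowered it by 0.15. Relative to the median of all genes *Plin2* stood at 1.29 and *Mfge8* at 1.13, and both were past 1.5 times under these scalings. The sign of the members near 0 turned, with *Btn1a1* at 0.16 and *Muc1* at 0.089 for reads on listed genes, and *Muc15* at -0.087 without the 20 most abundant genes. *Cidea* passed 1.5 times, at -0.60, when the 20 most abundant genes were left out. Dividing by the median of the 10 luminal genes lowered all log2 ratios by 1.38. This put *Plin2* at -0.049, *Mfge8* at -0.21 and 6 members below the 1.5 times line. Of all 14026 genes, 11981 were below that line too, and the median of all genes was -1.34. The share of higher genes among all those past 1.5 times was 48.2% with deposited RPM, 62.2% with reads on listed genes, 37.1% without the 20 most abundant genes and 1.95% relative to luminal genes.

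**Figure D3:**
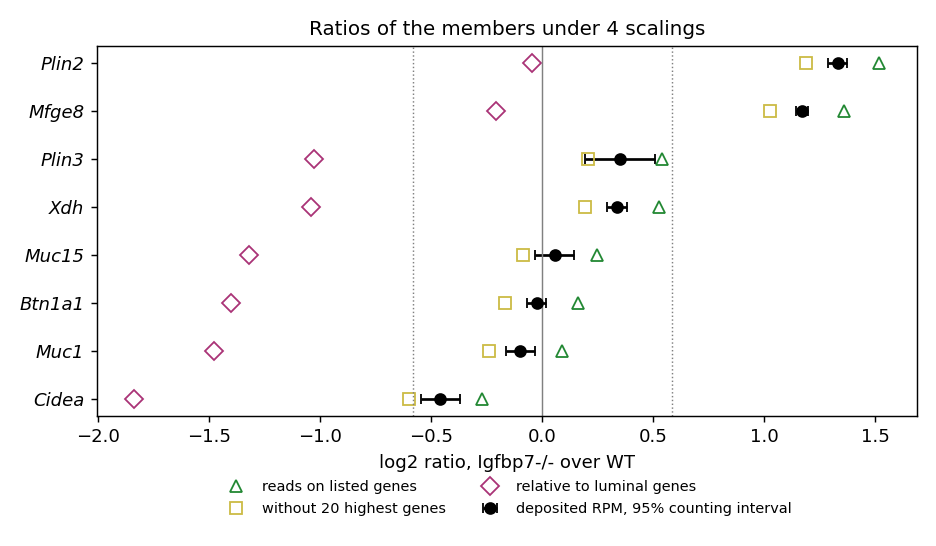
Log2 ratio of *Igfbp7*-/- to WT for each member from the deposited RPM (black, with the 95% counting interval) and with 3 other scalings (open symbols); dotted lines mark 1.5 times. The order of the members is the same under each scaling, and relative to the luminal genes (diamonds) *Plin2* moves to -0.049 and *Cidea* to -1.84.

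Ratios between members within a library are free of the scaling. Of the 28 pairs of members, 14 had a ratio that differed by at least 1.5 times between the libraries. The share among pairs of all genes was not computed, so this count is a description only. All pairs combine the same 8 ratios, so those with *Plin2* or *Mfge8* restate the high ratios of these genes. All 12 pairs of *Plin2* or *Mfge8* with another member were among them, each with more *Plin2* or *Mfge8* in *Igfbp7*-/-, and the remaining 2 were the pairs of *Cidea* with *Xdh* and with *Plin3*. The *Mfge8* to *Plin2* ratio was 2.18 per length in WT and 1.95 in *Igfbp7*-/- (log2 change -0.16, interval -0.21 to -0.11). *Muc1* and *Btn1a1* differed in proportion by less than counting error, with 0.701 *Muc1* per *Btn1a1* in WT and 0.666 in *Igfbp7*-/-. So did *Xdh* and *Plin3* (5.54 and 5.49 *Xdh* per *Plin3*).

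**Figure D4:**
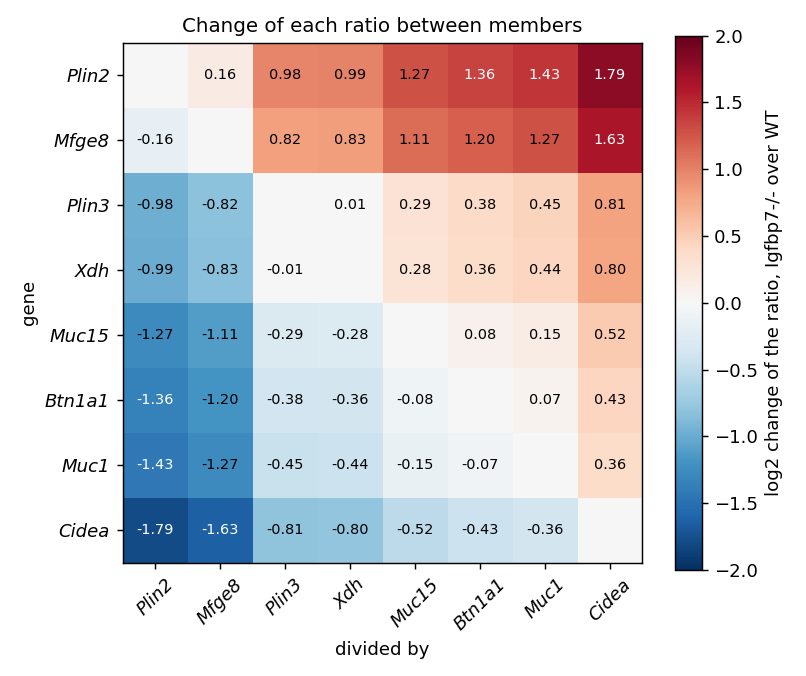
Log2 change from WT to *Igfbp7*-/- of the within-library ratio of the gene in each row to the gene in each column, members ordered by their own ratio. The 2 upper rows, *Plin2* and *Mfge8*, differ from the other 6 by 0.82 to 1.79, and the 2 differ from each other by 0.16.

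The order of the members by RPKM in WT was *Mfge8*, *Plin2*, *Btn1a1*, *Cidea*, *Muc1*, *Xdh*, *Muc15* and *Plin3*, and each neighbour in this order differed from the next by more than counting error. In *Igfbp7*-/- *Xdh* followed *Btn1a1*, ahead of *Muc1* and *Cidea*. *Muc1* and *Cidea* were not separable there, at a ratio of 1.05 (interval 0.997 to 1.11). The 8 genes together held 0.261% of mapped reads in WT and 0.422% in *Igfbp7*-/-. Without *Plin2* and *Mfge8*, the sum of the remaining 6 was 1445 RPM (WT) and 1503 RPM (*Igfbp7*-/-).

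Most of the other milk genes listed were lower by at least 1.5 times, whereas none of the 8 members was. All 5 casein genes were lower in *Igfbp7*-/- by at least 1.5 times, with a median log2 ratio of -1.38. Of all genes, 23.0% were lower and 21.4% higher. *Csn2* went from 53087 to 19970 RPM, *Csn3* from 19467 to 7473 RPM, *Csn1s1* from 23507 to 9789 RPM, *Csn1s2a* from 13208 to 5835 RPM and *Csn1s2b* from 300.2 to 42.4 RPM. Per length, *Plin2* equalled 0.00377 of *Csn2* in WT and 0.0252 in *Igfbp7*-/-, a 6.68-fold shift, and for *Cidea*, the member with the smallest shift, it was 1.93-fold. Of 5 whey protein and lactose synthase genes past the minimum, 3 were lower, 1 was higher and 1 stayed within 1.5 times, beside the same shares. Among the lower were *Wap* (13731 and 3866 RPM) and *Glycam1* (15705 and 5687 RPM). *Ltf*, the iron-binding lactoferrin, was higher (369 and 1711 RPM).

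Genes that make the fat inside the globule were mostly lower, unlike the 8 members. Of 30 genes of milk fat synthesis, 19 were lower and 1 was higher by at least 1.5 times, beside 23.0% and 21.4% of all genes. The median log2 ratio of the 30 was -1.05. The largest differences were those of *Slc25a1*, the mitochondrial citrate carrier (112 RPM in WT, 10.4 RPM in *Igfbp7*-/-), *Insig1*, which holds back the sterol regulatory proteins (173 and 19.0 RPM), and *Elovl6*, a fatty acid elongase (59.2 and 9.31 RPM). *Fasn*, the fatty acid synthase, went from 1608 to 553 RPM. Per length, *Btn1a1* equalled 0.908 of *Fasn* in WT and 2.59 in *Igfbp7*-/-, and *Plin2* equalled 1.10 of *Fasn* in WT and 8.07 in *Igfbp7*-/-.

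Among 28 further proteins reported in the globule membrane or on the apical surface, 9 were lower and 1 was higher by at least 1.5 times. Of all genes, 23.0% were lower and 21.4% higher, and the median log2 ratio of the 28 was -0.36. The largest differences among genes of at least 10 RPM were those of *Nsdhl* (19.2 RPM in WT, 4.60 RPM in *Igfbp7*-/-) and *Lss* (12.1 and 4.71 RPM), both enzymes of cholesterol synthesis, and *Slc34a2*, an apical phosphate transporter (143 and 46.4 RPM). Lower levels were also found for *Fabp3*, a fatty acid binding protein (465 and 193 RPM), and for *Rab18*, a GTPase of lipid droplets (198 and 88.6 RPM). *Cd36*, a fatty acid translocase and a main globule protein, stayed within 1.5 times (546 and 409 RPM). *Plin2* and *Mfge8* thus lay above the median of this list by more than 1.5 on the log2 scale.

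Of 14 droplet and lipolysis genes past the minimum, 12 stayed within 1.5 times, with a median log2 ratio of 0.20. *Pnpla2*, the adipose triglyceride lipase, was the 1 that was higher (96.2 RPM in WT, 156 RPM in *Igfbp7*-/-), *Cidec* was the 1 that was lower, and the hormone-sensitive lipase gene *Lipe* (10.5 and 15.5 RPM) and the seipin gene *Bscl2* (12.2 and 8.60 RPM) stayed within 1.5 times. Of 18 docking and fusion genes, 3 were higher and 4 lower, beside 21.4% and 23.0% of all genes, with a median of -0.035. Among them were *Rab27a* (24.4 and 8.02 RPM), *Nsf* (17.7 and 8.14 RPM) and the SNARE gene *Vamp8* (23.8 and 43.0 RPM). The integrin genes whose products bind Mfge8 were split, with *Itgav* at 253 RPM in WT and 705 RPM in *Igfbp7*-/-, *Itgb5* at 35.2 and 54.5 RPM and *Itgb3* at 276 and 152 RPM. Among 16 regulators of secretory genes, 5 were higher and 3 lower, beside the same shares of all genes. *Prlr*, the prolactin receptor, was at 30.1 and 103 RPM, *Cebpb* at 58.0 and 113 RPM and *Stat5a* at 64.8 and 31.4 RPM.

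**Figure D5:**
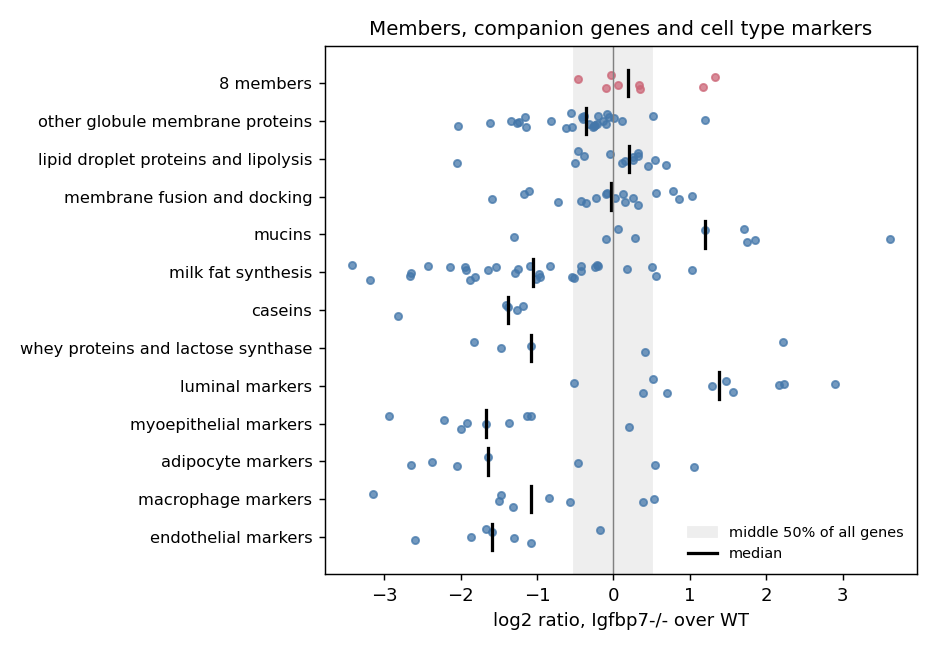
Log2 ratio of *Igfbp7*-/- to WT for the 8 members (red), the genes of companion lists and cell type marker lists (blue), one point per gene that reached 1 RPM in either library, with a black bar at each median and a gray band from -0.52 to 0.51 for the middle 50% of all genes. The median of the members is 0.20, those of caseins and milk fat synthesis are -1.38 and -1.05, and that of the luminal markers is 1.38.

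Markers of several cell types differed between the libraries alongside the members. Of 10 luminal epithelial genes, 7 were higher by at least 1.5 times, beside 21.4% of all genes. The summed level of the 10 was 1826 RPM in WT and 4303 RPM in *Igfbp7*-/-. *Krt18* went from 250.4 to 1174 RPM and *Krt8* from 268 to 789 RPM, whereas *Epcam* (338 and 482 RPM) and *Cdh1* (349 and 455 RPM) stayed within 1.5 times. *Elf5*, a regulator of alveolar secretory cells, was the 1 luminal gene with a ratio below 1 (137 and 95.9 RPM, log2 ratio -0.52). Per length, each of the 8 members was lower relative to *Krt18*, by 1.87-fold for *Plin2* up to 6.45-fold for *Cidea*. So were most genes. *Krt18* itself was higher by 4.69 times, and 1352 of all 14026 genes tested were higher by at least 2 times. No more than these 1352 can have a higher ratio than *Krt18*, so the direction relative to *Krt18* does not set the members apart. Relative to *Cdh1*, *Plin2* was 1.93-fold and *Mfge8* 1.73-fold higher in *Igfbp7*-/-, *Xdh* and *Plin3* differed by less than counting error, and *Cidea* was 1.79-fold lower. Relative to *Elf5*, *Plin2* was 3.60-fold, *Mfge8* 3.22-fold, *Plin3* 1.82-fold, *Xdh* 1.81-fold, *Muc15* 1.49-fold, *Btn1a1* 1.41-fold and *Muc1* 1.34-fold higher. *Cidea* differed by less than counting error relative to *Elf5* (log2 change 0.058, interval -0.067 to 0.18). The direction given for a member therefore depended on which epithelial gene it was set against.

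Adipocytes make *Plin2* and can make *Cidea*, and macrophages make *Mfge8* and *Plin2*. Beside the counts of each cell type below stand 23.0% of all genes lower and 21.4% higher by at least 1.5 times. Of 7 adipocyte markers past the minimum, 4 were lower and 1 was higher. The sum of all 10 was 609 RPM in WT and 227 RPM in *Igfbp7*-/-, or 65.0 and 54.0 RPM without *Fabp4*. *Fabp4* is also in the list of milk fat synthesis, and *Plin1*, *Plin4*, *Cidec* and *Lipe* are also droplet genes. None was at 0, and the defining genes *Adipoq* (192 and 35 reads) and *Plin1* (9 and 2 reads) were low. Of 8 macrophage markers, 5 were lower, none was at 0, and the sum was 626 RPM in WT and 745 RPM in *Igfbp7*-/-, or 156 and 67.7 RPM without *Cd14*, a gene that mammary epithelium can express. Myoepithelial markers (8 of 9 lower, 3785 and 1203 RPM in sum) and endothelial markers (6 of 7 lower, 1260 and 406 RPM in sum) were lower as well, with none at 0. Fibroblast markers (4 of 7 lower, 1 higher, 9084 and 4619 RPM in sum) and lymphocyte markers (6 of 7 lower, 63.5 and 23.0 RPM in sum) were mostly lower too, and 0 of 4 erythroid markers past the minimum differed by 1.5 times. Of the lower markers, 4 lymphocyte genes, 1 macrophage gene and 1 adipocyte gene passed the minimum only through the WT library, which by itself puts their ratio below 1. The part of these cell types in the levels of the members was not tested.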

How the data were processed

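RNA of the MECs was selected for poly(A) and sequenced on a SOLiD instrument, in read pairs of 35 and 75 bp. The authors mapped the reads with a Bowtie pipeline in GeneSifter, allowing at most 3 mismatches, after a filter against mitochondrial, ribosomal and small nuclear RNA. Rows of rRNA still hold 3.58% (WT) and 4.35% (*Igfbp7*-/-) of listed reads. The submitters' processing notes name Bowtie 0.12.3, SAMtools 0.1.15 and the mouse build mm9, although the methods name a human reference. The library preparation kept the strand. The gene annotation, whether the counting used strand and the rule for reads with several matches were not given in the sources used here. The authors deposited a count of reads per gene, the RPM (count per 1000000 mapped reads) and the RPKM (RPM per kilobase of a length they chose). The RPM denominator includes reads outside the listed genes, so a change in that share, or in the caseins, moves every RPM.

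The ratio of *Igfbp7*-/- to WT was computed from RPM after adding 0.1 RPM, for genes that reached 1 RPM in either library, with 1.5 times, the fold of the study, as threshold. Intervals (95%) are Clopper-Pearson on read pairs for ratios between libraries and normal on the log scale for ratios within one. They leave out the added 0.1 RPM and variation between animals. Counts were halved for them because 75.8% and 74.1% of the counts from 1 to 20 were even. Rows without a symbol (50 per library, 0.0495% and 0.0670% of listed reads) were left out. The members and lists were chosen with earlier results of these data known. Genes named beside the members were the caseins, relatives by family and, per list, the 3 with at least 10 RPM and the largest ratio in either direction. *Fasn*, *Fabp3*, *Rab18*, *Cd36*, *Axl*, *Mertk*, *Gphn* and *Timd4* were named after their values were seen. The code recovered known changes in simulated counts. Alternatives were other scalings, pseudocounts, minimums and thresholds, and RPKM. Transcripts of the members were aligned to the NCBIM37 genome with BLAST to find copies. Python 3.11.15, numpy 2.4.6, scipy 1.17.1 and pandas 2.3.3 were used.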

Additional observations from a re-analysis of the deposited data

How the results depend on the processing

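With 1 library per genotype, no replicate could be left out and no paired analysis was possible because each genotype had a single library. Of 442 values recomputed under 13 alternatives, 336 stayed within their counting interval or within 1.5 times of the count, 104 moved and 2, both of members past 1.5 times, reversed in sign. Sign changes of members within 1.5 times are counted as moved. The 2 were *Mfge8* (-0.21) and *Plin2* (-0.049) relative to the luminal genes, where the number of members past 1.5 times became 0 higher and 6 lower in place of 2 and 0, the median of the members -1.18 in place of 0.20, and the companion genes 4 higher and 129 lower in place of 23 and 51 of 147. This follows from subtracting 1.38 from each log2 ratio. Changes of pseudocount, minimum or interval and the use of RPKM could hardly move the ratios of the members, so the 336 do not measure stability. With reads on listed genes the ratio of each member moved, and without the 20 most abundant genes all but that of *Plin3* did. Without the 20 most abundant genes, 1 member (*Cidea*) was lower and the median was 0.053. The median was 0.38 with reads on listed genes and 0.41 with these reads less rRNA, snRNA and miscRNA, an alternative chosen after seeing the data. With a minimum of 10 RPM, 13 companion genes were higher, and with a threshold of 2, 14 were. Of all genes, 3006 were higher and 3231 lower with deposited RPM. These numbers became 4741 and 5279 without a minimum, 1696 and 1672 with 10 RPM, 1352 and 1936 at a threshold of 2, 1571 and 2059 where the whole interval had to pass 1.5 times, 4696 and 2686 on listed reads less rRNA, snRNA and miscRNA, and 238 and 11981 relative to luminal genes. *Plin2* and *Mfge8* were past 1.5 times under each alternative except the luminal one. Counting error is small for the members, the least precise being *Plin3*, and variation between animals is unknown.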

Other observations

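Other genes with a known tie to the members gave the following values. *Mfge8* acts with receptors that clear dying cells. Of 12 genes of apoptotic cell engulfment, 1 was higher and 3 were lower in *Igfbp7*-/- by at least 1.5 times. Of all genes, 21.4% were higher and 23.0% lower, and the median log2 ratio of the 12 was -0.21. *Timd4*, 1 of the lower genes, passed 1 RPM only through the WT library (2.10 and 0.51 RPM). *Tyro3*, a receptor kinase, had 3.47 RPM in WT and 22.4 RPM in *Igfbp7*-/-, whereas *Elmo1* (33.0 and 11.4 RPM) and *Pros1* (96.9 and 52.1 RPM) were lower. The partner receptor genes *Axl* (542 and 408 RPM) and *Mertk* (40.0 and 44.5 RPM) stayed within 1.5 times. *Edil3*, the closest relative of *Mfge8*, had 0.58 RPM in WT and 0.17 RPM in *Igfbp7*-/-.

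Xanthine oxidoreductase carries a molybdenum cofactor. Of 8 genes of cofactor synthesis and of related oxidases past 1 RPM, 3 were higher and 2 were lower. Of all genes, 21.4% were higher and 23.0% lower, and the median log2 ratio of the 8 was 0.042. *Aox3*, 1 of the higher genes, passed only through the *Igfbp7*-/- library, and with a minimum of 10 RPM 0 of 5 were higher and 2 were lower. *Mocs1* (37.1 and 28.2 RPM) and *Gphn* (22.7 and 22.2 RPM), which act in cofactor synthesis, stayed within 1.5 times, *Mocs2* was lower (815 and 525 reads), and *Suox*, the sulfite oxidase gene, was lower (12.2 and 4.74 RPM). *Xdh*, at 410 and 517 RPM, stood far above the related oxidase genes *Aox1* (2.91 and 5.03 RPM) and *Aox3* (0.58 and 2.54 RPM).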
